A study of Mus musculus with 9 samples.

Results

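The 10 genes described here encode the peroxiredoxins Prdx1, Prdx2, Prdx3, Prdx4, Prdx5 and Prdx6, the thioredoxins Txn1 and Txn2, and the intracellular superoxide dismutases Sod1 and Sod2. They were chosen by name, by a rule that uses no measured value, and all 10 were found among 27095 loci of the deposited table, each under a single gene name. The spans of Prdx1 and Prdx5 in the table are shared, with 2 loci listed over the span of Prdx1 and 3 over that of Prdx5, the gene itself included. All 10 passed the filter used below, a mean of at least 1 FPKM (fragments corrected for exon length and for library size) over the groups, together with 15548 loci in all. The study asked which changes in the fetal transcriptome accompany structural defects after gestational alcohol exposure. Wild-type mouse fetuses (C57BL/6 by the labels, C57BL/6J by the study's methods) were collected on gestational day 17 after an intraperitoneal injection of the dam on gestational day 7, with lactated Ringer's solution for control fetuses and 2.9 g/kg EtOH for exposed fetuses. EtOH-exposed affected fetuses had ocular and craniofacial defects, and EtOH-exposed unaffected fetuses had none. RNA came from fetal brain by the sample labels and from cortex by the study's methods, with 3 fetuses per group. The sex and litter of these fetuses are not given in the sources used here, though the study reports that most of its affected samples were female. The table holds 1 value per locus and group, the authors' mean over the 3 fetuses, so the differences given here have no replicate check and no test. The authors' own test results in the same table were not used.

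Superoxide dismutases convert superoxide, a by-product of respiration, to hydrogen peroxide. Peroxiredoxins reduce hydrogen peroxide with a reactive cysteine, and in most of them the disulfide that forms is then reduced by thioredoxin, which thioredoxin reductase recharges with NADPH. Prdx1, Prdx2, Prdx6, Txn1 and Sod1 work mainly in the cytosol, Prdx3, Txn2 and Sod2 in mitochondria, Prdx4 in the endoplasmic reticulum, and Prdx5 in mitochondria, peroxisomes and cytosol. Neurons have high respiration and carry much of this system, and red blood cells are rich in Prdx2.

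The reactive cysteine is what the peroxiredoxins and thioredoxins share, and its codon is given here in capitals within the surrounding coding bases, since RNA of such related genes has to be told apart for the values to stand. Each run holds 30 bases of the coding sequence of the GENCODE M21 transcript (GRCm38), 5′ to 3′ on the coding strand. For the thioredoxins, both cysteines of the active site are in capitals.
Prdx1: tttacttttgtgTGTcccacggagatcatt
Prdx2: ttcacttttgttTGCcccacggagatcatc
Prdx3: ttcacatttgtgTGTcctacagaaattgtt
Prdx4: ttcacctttgtgTGTccaactgaaatcatc
Prdx5: tttacacctggcTGTtctaagacccacctg
Prdx6: tttaccccagtgTGCaccacagaacttggc
Txn1: tctgctacgtggTGTggacctTGCaaaatg
Txn2: catgcacagtggTGTggccccTGCaagatc

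Prdx1 shared 26 of these 30 bases with Prdx2, 24 with Prdx4 and 23 with Prdx3, and Txn1 shared 21 with Txn2. Over whole coding sequences the closest pair was Prdx1 and Prdx2, with 69.5% identity over 597 alignment columns. Prdx3 and Prdx4 followed with 58.0%, while Txn1 and Txn2 had 37.8% and Sod1 and Sod2 44.0%. Closer copies lie outside the family. Prdx1 matched Gm15974, Gm21399 and Gm7204, Prdx2 matched Gm5225 and Tdpx-ps1, Txn1 matched Txn-ps1, Sod1 matched Gm8566 and Prdx6 matched Prdx6b, each at 90% identity or more over at least 100 bases. The longest of these matches was 98.3% identical over 597 bases for Prdx1, 96.3% over 597 bases for Prdx2, 95.8% over 309 bases for Txn1 and 97.8% over 465 bases for Sod1. Sod2, whose transcript is the longest of the 10 at 5861 bases, met the same limits with 384 other genes, but only over short stretches. The longest of these was 210 bases with 90.5% identity. Of the 384 genes, 279 were listed in the table with a mean of up to 535.7 FPKM. Of the copies named for Prdx1, Prdx2, Txn1, Sod1 and Prdx6, only Prdx6b was listed in the table, and its highest group value was 0.0113 FPKM, and how reads that fit both a gene and its copy were counted is not given in the sources used here.

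The order of the 10 genes by level was nearly the same in each group. Prdx2 was highest, followed by Sod1, Prdx5, Prdx1, Txn1 and Txn2, and Sod2 was lowest. Prdx4 stood above Prdx6 in control and unaffected fetuses and just below it in affected fetuses, at 35.7 against 36.0 FPKM. Without values of single fetuses it cannot be said which neighbours in this order differ beyond their spread. Prdx2 alone made up 48.9% of the summed FPKM of the 10 genes in control, 50.2% in unaffected and 47.3% in affected fetuses.

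**Figure D1:**
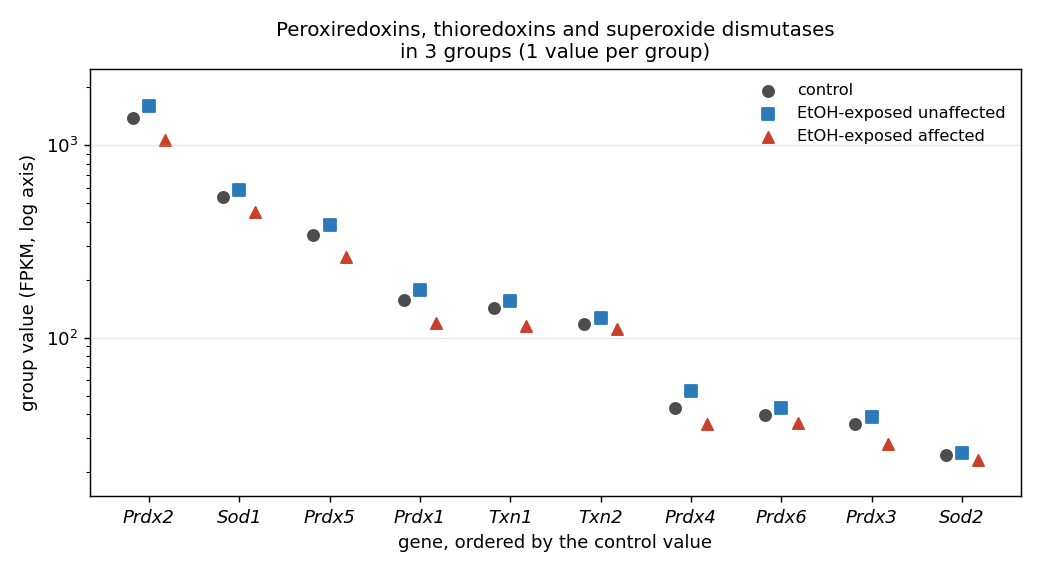
Group values of the 10 genes in FPKM on a log axis, ordered by the control value, with 1 point per group and no error because the table holds 1 value per group. Every gene has its highest point in unaffected and its lowest in affected fetuses, from Prdx2 at 1602 and 1061 FPKM to Sod2 at 25.2 and 23.2 FPKM.

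All 10 genes were highest in unaffected fetuses, intermediate in control and lowest in affected fetuses in the deposited FPKM. Scaled to the sum over all loci instead, which moves the median of all loci to −0.32 in unaffected against control fetuses, all 10 were lower in unaffected than in control fetuses, and 3 were higher in affected than in unaffected fetuses. In the deposited FPKM, the order unaffected above control above affected was met at 30.9% of the 15548 loci, at 48.3% of the 4463 loci with a mean of at least 20 FPKM, and at 71.7% of the 1836 loci that also had a median transcript length under 1500 nucleotides, so that it was the common order among abundant genes with short transcripts. All 10 genes have a mean of at least 20 FPKM, and 7 of them have such short transcripts. The summed value of the 10 genes was 2819 FPKM in control, 3190 in unaffected and 2242 in affected fetuses. On the log2 scale the sum in affected fetuses differed by −0.33 from control and by −0.51 from unaffected fetuses, and by −0.29 and −0.43 without Prdx2. For single loci, differences are log2 of the ratio of FPKM + 0.1, and a gene is said to have risen or fallen where its ratio passed 5 to 4, or 0.32 on the log2 scale.

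In affected against control fetuses, 4 of the 10 genes fell past this fold, Prdx1, Prdx2, Prdx3 and Prdx5, where 11.3% of all loci did. No gene rose. The median difference over the 10 genes was −0.30, beside 0.02 over all loci and −0.18 over the abundant loci with short transcripts, of which 24.3% fell past the same fold. In affected against unaffected fetuses, 7 of the 10 fell, all but Prdx6, Txn2 and Sod2, where 18.1% of all loci and 45.3% of the abundant loci with short transcripts did. The median was −0.45, beside 0.01 and −0.29. In unaffected against control fetuses, 0 of the 10 genes rose past the fold, where 5.45% of all loci did, and the median was 0.13, beside 0.01 over all loci and 0.094 over the abundant loci with short transcripts. The 3 comparisons share their groups, so a high or low value in one group appears in a pair of them.

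**Figure D2:**
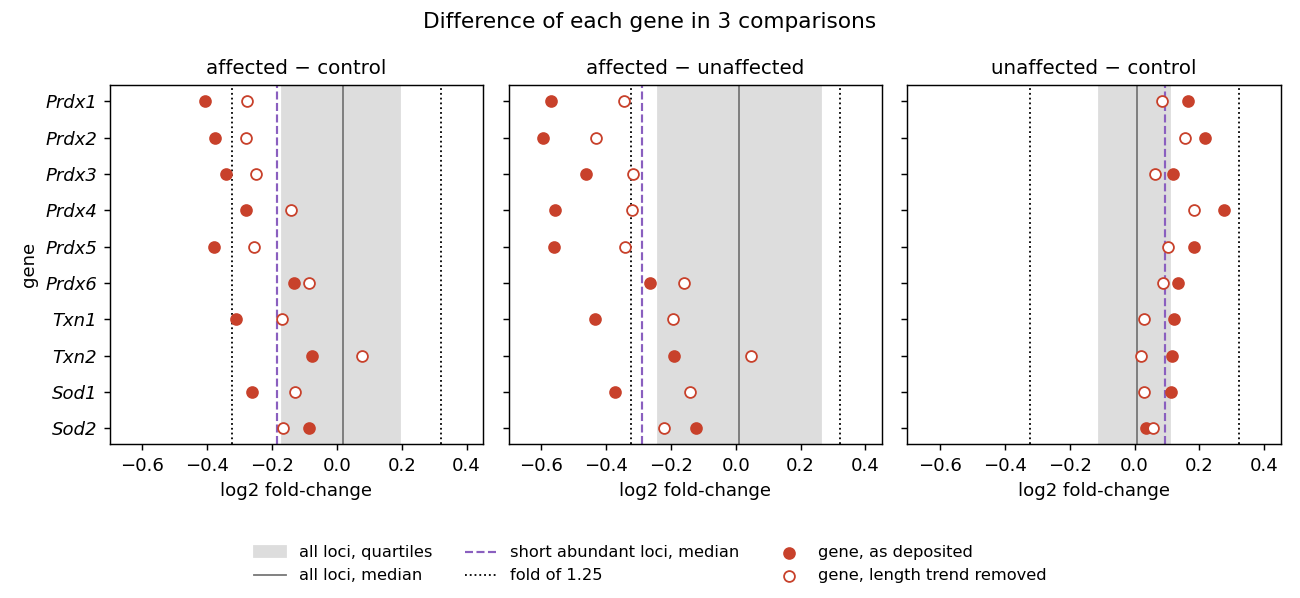
Log2 fold-change of each gene (filled points) in the 3 comparisons, with the quartiles and median of all loci, the median of abundant loci with short transcripts and the limits at 0.32 and −0.32. Open points have the trend with transcript length removed. The filled points of Prdx1, Prdx2, Prdx3 and Prdx5 lie past the limit in affected against control fetuses, and no open point does.

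Among the cytosolic peroxiredoxins, Prdx1 (chromosome 4, 116684965 to 116700000, mm10) had 157 FPKM in control, 176 in unaffected and 119 in affected fetuses. It fell in affected fetuses, by −0.41 on the log2 scale against control, the largest difference of the 10 genes in that comparison, and −0.57 against unaffected fetuses. Prdx2 (chromosome 8, 84969648 to 84975345) had 1378, 1602 and 1061 FPKM in the same order and fell with differences of −0.38 and −0.59. The levels of the pair kept nearly the same ratio, with 8.76 times as much Prdx2 as Prdx1 in control, 9.08 in unaffected and 8.94 in affected fetuses. In the annotation, Junb and Rnaseh2a on the opposite strand overlap Prdx2 over 176 bases.

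Prdx3 is the mitochondrial form with the same reaction cycle, and lies on chromosome 19 (60864066 to 60874538). Its values were 35.4, 38.5 and 27.9 FPKM in control, unaffected and affected fetuses, and it fell with differences of −0.34 from control and −0.46 from unaffected fetuses. Prdx4, the form of the secretory pathway, lies on chromosome X (155323920 to 155338454). It had 43.3, 52.5 and 35.7 FPKM. Its difference of −0.28 from control did not pass the fold, while it fell against unaffected fetuses with −0.56. Prdx4 also had the largest difference of the 10 genes between unaffected and control fetuses, 0.28, which did not pass the fold.

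Prdx5 keeps its catalytic disulfide within the same molecule and is annotated on chromosome 19 at 6906697 to 6910106. Its deposited locus runs further, from 6906699 to 6921808. Prdx5 had 341, 387 and 262 FPKM, and fell with differences of −0.38 and −0.56. The annotation places Trmt112 on the opposite strand over 409 bases of Prdx5, and whether the counting used the strand is not given in the sources used here, so reads of the pair cannot be told apart in that stretch. Trmt112 itself had 64.7, 72.3 and 62.0 FPKM in control, unaffected and affected fetuses. Prdx6 uses a single reactive cysteine and glutathione in place of thioredoxin, and also has phospholipase activity. Its values of 39.4, 43.2 and 36.0 FPKM differed least among the peroxiredoxins, with −0.13 and −0.26 in affected against control and unaffected fetuses, and neither passed the fold.

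Of the thioredoxins, Txn1, the cytosolic reductant of peroxiredoxins and ribonucleotide reductase, had 142, 155 and 115 FPKM. Its difference of −0.31 from control lay just under the limit of 0.32, and it fell against unaffected fetuses with −0.43. Txn2, the mitochondrial form, had 117, 127 and 111 FPKM, with differences of −0.08 and −0.19 that did not pass the fold. The level of Txn1 was 1.22 times that of Txn2 in control and in unaffected fetuses and 1.03 times in affected fetuses.

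Of the dismutases, Sod1 had the second highest and Sod2 the lowest level of the 10 genes. Sod1, the copper and zinc enzyme of the cytosol, had 540, 584 and 451 FPKM, with −0.26 against control, which did not pass the fold, and a fall of −0.37 against unaffected fetuses. Sod2, the manganese enzyme of the mitochondrial matrix, had 24.6, 25.2 and 23.2 FPKM, with −0.09 and −0.12, the smallest difference from unaffected fetuses of the 10 genes. Per length, there was 21.9 times as much Sod1 as Sod2 in control, 23.2 times in unaffected and 19.5 times in affected fetuses. Over compartments, 2 of 5 cytosolic genes and 2 of 4 genes listed as mitochondrial fell against control, beside 11.3% of all loci and 24.3% of the abundant loci with short transcripts, with medians of −0.31 and −0.21. The mitochondrial count holds Prdx5, which is also found elsewhere in the cell.

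The differences moved with transcript length across the table. Over singly named loci at the minimum, Spearman's rho between the median transcript length of a gene and its log2 difference was 0.44 in affected against control, 0.50 in affected against unaffected and −0.40 in unaffected against control fetuses, given as a description over 12341 loci of the same libraries. The 10 genes have a median transcript length of 1019 nucleotides, beside 2170.5 for the loci. When the running median over neighbouring loci ordered by length was subtracted, the differences from control became −0.28 for Prdx1 and Prdx2, −0.26 for Prdx5, −0.25 for Prdx3, −0.17 for Txn1 and Sod2, −0.14 for Prdx4, −0.13 for Sod1 and −0.085 for Prdx6, and Txn2 changed sign to 0.077. None of the 10 then passed the fold against control, where 6.8% of the 12341 loci were lower past it. Against unaffected fetuses 3 were lower past it, where 10.9% of these loci were. The 3 were Prdx1 with −0.34, Prdx2 with −0.43 and Prdx5 with −0.34. The part of the length trend in these differences beyond that subtraction was not tested.

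**Figure D3:**
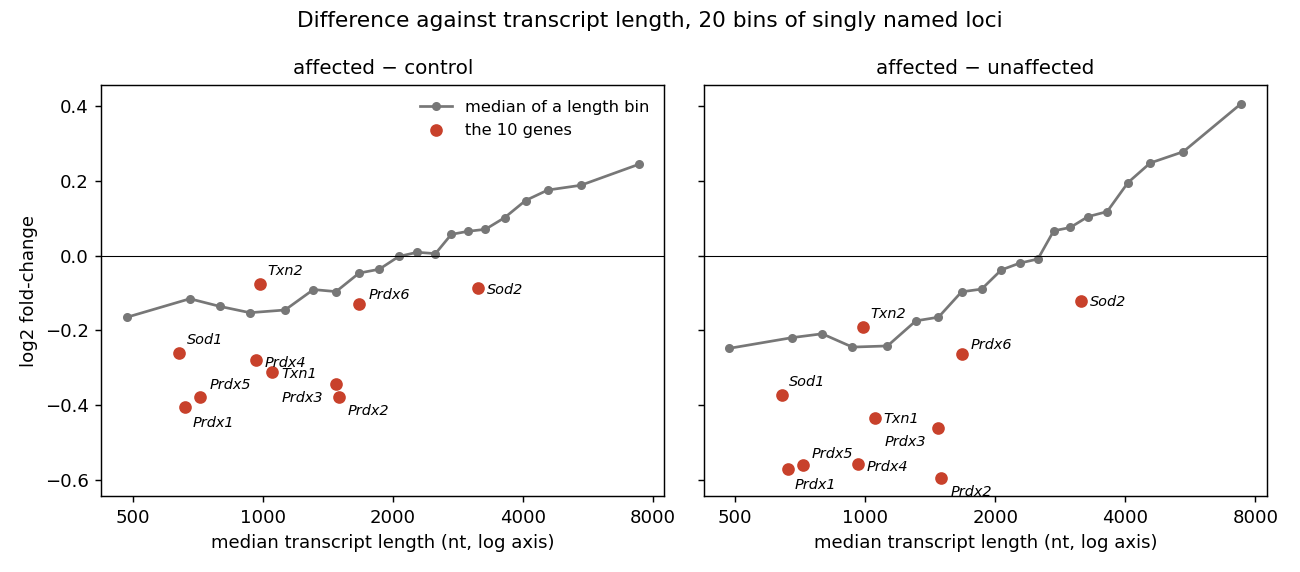
Log2 fold-change against median transcript length in nucleotides (log axis), with medians of 20 length bins of singly named loci (grey) and the 10 genes (red). The bin medians run from −0.16 to 0.24 in affected against control fetuses, and all 10 genes but Txn2 lie below the grey line in both panels.

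Within the 10 genes, the difference from control had a Spearman's rho of −0.50 with the control level and 0.37 with transcript length (n = 10 genes of the same libraries, as a description). For Sod1, the 3 nearest of 219 singly named loci at a similar level, by distance in the plane of the unaffected and the affected difference from control, were Uchl1 at 0.0088, Cct5 at 0.014 and Shfm1 at 0.016 log2 units. For Prdx2, Atpif1 at 0.0097 and Rplp0 at 0.019 were among the 3 nearest of 107 loci. Such patterns were common at these levels, since 23.3% of the loci compared lay within 0.1 of Sod1 and 29.0% within 0.1 of Prdx2.

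Other genes of the thioredoxin, glutaredoxin and superoxide systems, with targets of thioredoxin, were described from 6 lists with 43 loci, of which 41 passed the minimum. Against control, 3 of the 41 fell in affected fetuses and 2 rose, where 11.3% and 12.1% of all loci did, with a median of −0.13. Against unaffected fetuses 10 fell and 0 rose, where 18.1% and 20.3% did, with a median of −0.21. The thioredoxin reductases, which recharge the thioredoxins, did not pass the fold. Txnrd1 had 60.2, 60.9 and 63.8 FPKM in control, unaffected and affected fetuses, a difference of 0.08 from control, and the mitochondrial Txnrd2 had 5.43, 5.76 and 5.51 FPKM, a difference of 0.02. Txnip, which binds and inhibits thioredoxin, differed by −0.07, and Srxn1, which repairs overoxidised peroxiredoxins, by −0.13. Sesn2, a stress-responsive sestrin at only 1.53 FPKM in control fetuses, rose with a difference of 0.34.

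Sod1 needs copper, which Ccs inserts into it, while the copper chaperone Atox1 serves the copper pumps of the secretory pathway. Atox1 had 157, 183 and 122 FPKM and fell with −0.36 against control and −0.58 against unaffected fetuses. Ccs had 15.7, 16.9 and 12.8 FPKM, with −0.29 from control, which did not pass the fold, and a fall of −0.40 against unaffected fetuses. The copper importer Slc31a1 differed by 0.02 and −0.10 and did not pass the fold. Sod3, the extracellular dismutase, fell with −0.34 against control at only 1.86, 1.63 and 1.45 FPKM. Catalase, which also removes hydrogen peroxide, had 43.9, 45.9 and 46.3 FPKM, with 0.08 from control and 0.01 from unaffected fetuses. Among glutaredoxins, which reduce disulfides with glutathione, Glrx3 fell with −0.33 and −0.48. Of the methionine sulfoxide reductases, which depend on thioredoxin, Msrb3 rose by 0.35 at 1.23 FPKM in control fetuses, while Msra, Msrb1 and Msrb2 differed by −0.25, −0.27 and −0.23.

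**Figure D4:**
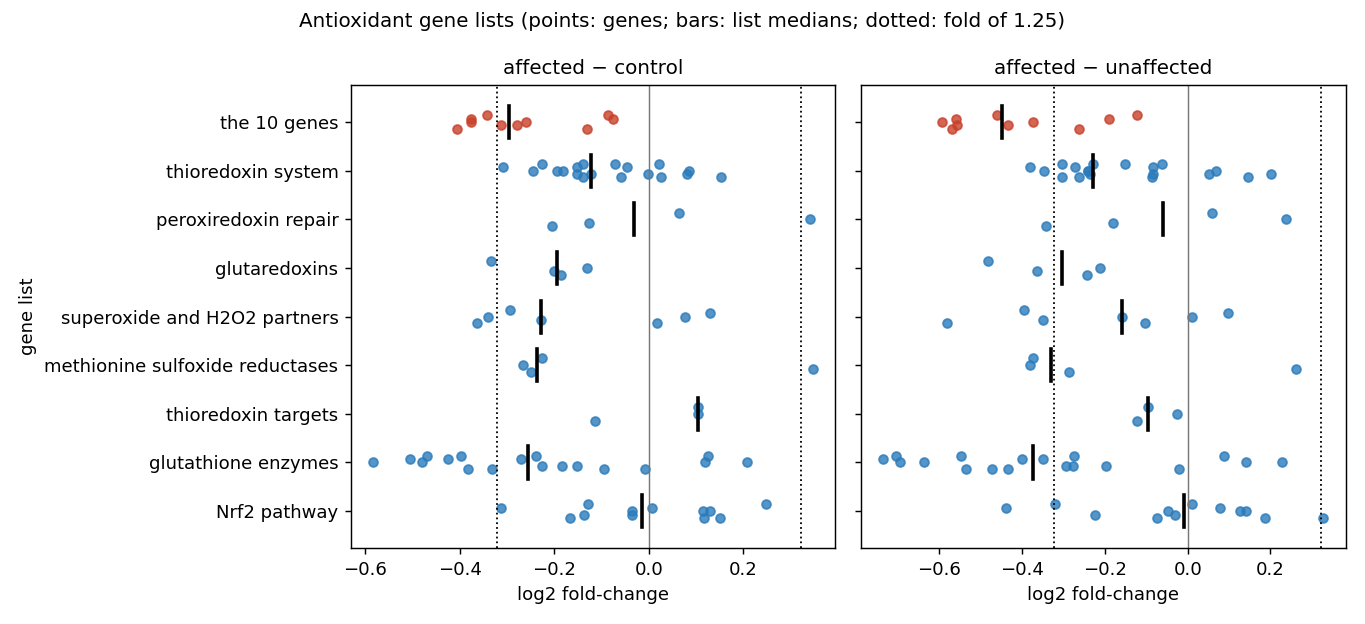
Log2 fold-change of the genes (points) and the median (bar) of 9 lists, at a mean of at least 1 FPKM, with dotted lines at the fold limits of 0.32 and −0.32. The 10 genes have medians of −0.30 and −0.45, the glutathione enzymes −0.25 and −0.37, and the Nrf2 pathway −0.02 and −0.01.

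Glutathione enzymes form the parallel route of peroxide removal. Against control 8 of 18 fell in affected fetuses (11.3% of all loci), with a median of −0.25. Against unaffected fetuses 10 of 18 fell (18.1% of all loci), with a median of −0.37. Of the abundant loci with short transcripts, 24.3% fell against control and 45.3% against unaffected fetuses. Mgst1, a membrane glutathione transferase, fell with −0.58 against control and −0.70 against unaffected fetuses. The peroxidase Gpx1 had 159, 196 and 120 FPKM in control, unaffected and affected fetuses and fell with −0.40 and −0.71. Gpx4, which reduces lipid peroxides, had 253, 297 and 178 FPKM and fell with −0.51 and −0.74, in a locus from 79697305 to 80369637 on chromosome 10 that spans many genes besides Gpx4. Gpx8, Mgst3, Gstp1 and Gpx7 fell with −0.48, −0.47, −0.42 and −0.38 against control. The synthesis and recycling enzymes did not pass the fold against control, with 0.12 for Gclm, −0.01 for Gclc, −0.15 for Gss and 0.13 for Gsr.

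The Nrf2 pathway, whose transcription factor Nfe2l2 activates many antioxidant genes through the antioxidant response element, had 0 of 12 genes past the fold in either direction against control, where 11.3% of all loci fell and 12.1% rose. Nfe2l2 had 6.49, 6.47 and 6.33 FPKM and its inhibitor Keap1 had 26.3 FPKM in control and 26.4 in affected fetuses. Nqo1, a classical target, had −0.31 from control, which did not pass the fold, and fell with −0.44 against unaffected fetuses. Mafg, a partner of the factor, rose in that comparison with 0.33. Hmox1, the inducible haem oxygenase, rose by 0.57 in unaffected against control fetuses, from 3.63 to 5.43 FPKM.

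The 300 bases around the RefSeq start sites of the 10 genes (GRCm38.p6, 250 upstream and 50 downstream) were searched on both strands for TGACNNNGC, the core of the antioxidant response element. Sequences were found for 9 of the genes, and the core was present in 2 of them, Prdx1 and Sod1, beside 12.4% of 32817 promoters. Both matches are on the opposite strand and begin 133 bases upstream of the start of Prdx1 and 56 bases upstream of that of Sod1. TATAAA on the coding strand, beginning 45 to 20 bases upstream, was also found in those 2 promoters, 29 bases upstream in Prdx1 and 37 in Sod1, beside 2.14% of all promoters. GENCODE has a Prdx1 transcript that starts further upstream, at 116685544 in place of 116685599, so that this TATAAA lies within its first exon and is not printed. A match of letters does not show that a factor binds there. Both deposited loci start before the stretches shown here end, while the GENCODE and RefSeq starts lie after them. The upstream stretches of these 2 genes are shown on the coding strand with the core in capitals, at chr4:116685439-116685543 for Prdx1 and chr16:90220662-90220753 for Sod1, where TATAAA is in capitals too.
Prdx1: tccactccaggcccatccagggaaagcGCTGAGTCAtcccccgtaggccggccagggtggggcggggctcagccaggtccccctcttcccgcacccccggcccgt
Sod1: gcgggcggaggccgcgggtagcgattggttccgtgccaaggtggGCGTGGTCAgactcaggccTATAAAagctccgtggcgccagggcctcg

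Markers of several other cell types also differed between the groups. Red blood cell markers were found in 9 loci for 11 of 15 genes, and their summed value was 5816 FPKM in control, 7527 in unaffected and 3654 in affected fetuses, the same order as the 10 genes. The joined beta-globin locus, named for Beta-s, Hbb-b1, Hbb-b2 and Hbb-bh1, had 5357, 6924 and 3277 FPKM. All 7 erythroid loci at the minimum rose in unaffected against control fetuses (5.45% of all loci) and 6 of 7 fell in affected against unaffected fetuses (18.1% of all loci), while in affected against control fetuses 1 fell and 2 rose (11.3% and 12.1% of all loci), and the erythroid genes Slc4a1 and Klf1 were below the minimum. Of 10 cortical neuron and progenitor markers, 6 rose and 0 fell in affected against control fetuses, where 12.1% and 11.3% of all loci did, among them Tbr1 from 75.7 to 98.3 FPKM. Of 6 radial glia and astrocyte markers 3 fell against control (11.3% of all loci), among them Fabp7 with −0.58, while Vim had 0.29, which did not pass the fold. Of 5 meninges markers 2 fell against control (11.3% of all loci), Dcn with −0.51 and Crabp2 with −0.34. Of 5 endothelial markers 1 rose against control and 2 rose against unaffected fetuses (12.1% and 20.3% of all loci). Of the choroid plexus markers, Ttr had 970.2 FPKM in control, 1291 in unaffected and 1077 in affected fetuses, while Clic6 had 4.48, 5.36 and 8.31 FPKM and rose against both groups. Of 5 microglia markers, Aif1 fell with −0.58 against control and −0.38 against unaffected fetuses, Csf1r rose with 0.38 against unaffected fetuses, and P2ry12 rose with 0.45 in unaffected against control fetuses. The forebrain origin was matched by Emx1, at 37.0, 39.0 and 37.0 FPKM, while the hindbrain genes Hoxb2, Hoxb3 and Hoxa4 were listed at 0 in all groups and Hoxa2 and Hoxb4 reached at most 0.0276 FPKM. The part of blood or of these cell types in the values of the 10 genes was not tested, and in a bulk sample fewer cells of a type and less RNA per cell cannot be told apart.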

How the data were processed

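RNA from 9 fetuses was sequenced as 50 bp paired reads from TruSeq RNA libraries. Reads were aligned to mm10, with STAR and also Bowtie and TopHat named in the methods, and Bowtie2 2.2.4.0, Cufflinks and Cuffdiff in the submitters' processing notes. The deposited FPKM are the authors' group means, with 0 columns of single animals. The table's fold changes, p-values and q-values from the authors' comparisons were not used. Depth per library is not given in the sources used here. Among loci below 0.3 FPKM, 225 of 3413 had affected to control ratios at 9 recurring values from 0.616 to 0.884, and 283 of 3397 had unaffected to control ratios at 9 values from 0.832 to 0.963. If these loci hold 1 fragment, the exposed libraries are deeper than the control ones.

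Differences are log2(FPKM + 0.1) ratios at loci with a mean of at least 1 FPKM, called past a ratio of 5 to 4 (0.32) without a test, because a group has 1 value. Members, lists and alternatives were chosen with earlier results of these data known. Named genes are the 10 members, Txnrd1, Txnrd2, Txnip, Srxn1, Sod3, Ccs and Cat, the 8 listed genes with the largest difference between affected and control fetuses, and the 3 loci nearest to Sod1 and to Prdx2, of which 1 is not reported here. Other genes of the lists were named after their values were seen. Transcript lengths (GENCODE M21) were found for 99.2% of singly named loci and all 10 members. Python 3.11.15, pandas 2.3.3, Biopython 1.88 and BLAST+ 2.17.0 were used.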

Additional observations from a re-analysis of the deposited data

How the results depend on the processing

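No paired analysis was possible because the table holds 1 value per group, and no fetus was left out for the same reason. The depth per locus is unknown, and no interval was computed.

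In place of 4 members lower past the fold against control and 7 against unaffected fetuses, 7 passed against control when scaled to Gapdh and Ywhaz (19.3% of all loci), and 7 at a fold of 1.1 (28.6%). With the length trend removed, 0 passed against control (6.80%) and 3 against unaffected fetuses (10.9%). At a fold of 1.5, 0 (3.01%) and 1 (4.91%) passed, and 0 (4.94%) and 2 (5.51%) when scaled to the sum over named loci, chosen after seeing the data. Scaled to the sum over all loci, 0 passed against unaffected fetuses (3.88%). At a fold of 1.1, 4 were higher in unaffected than control fetuses (19.1%). The median of the members against control became −0.40 with Gapdh and Ywhaz, −0.17 with the length trend removed and −0.12 with the named loci. Against unaffected fetuses it became −0.14 with the sum over all loci, −0.27 with the length trend removed and −0.20 with the named loci.

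Scaling to all loci moved the median of all loci to 0.31 in affected against unaffected and to −0.32 in unaffected against control fetuses, and scaling to named loci moved it to 0.19 and 0.26 in affected against control and unaffected fetuses. Loci without a gene name make up most of the sum over all loci. With these shifts, 48.3% of loci were higher past the fold in affected against unaffected and 49.0% lower in unaffected against control fetuses when scaled to all loci, and 31.6% and 43.0% higher in affected against control and unaffected fetuses when scaled to named loci, and signs turned. Scaled to all loci, the median of unaffected against control became −0.21, with −0.17 for Prdx1, −0.12 for Prdx2, −0.21 for Prdx3 and Txn1, −0.058 for Prdx4, −0.15 for Prdx5, −0.20 for Prdx6, −0.22 for Txn2 and Sod1 and −0.30 for Sod2, and affected against unaffected became 0.043 for Prdx6, 0.12 for Txn2 and 0.18 for Sod2. Scaled to named loci, affected against control became 0.044 for Prdx6, 0.099 for Txn2 and 0.087 for Sod2, affected against unaffected 0.057 for Txn2 and 0.13 for Sod2, and unaffected against control −0.039 for Sod2. With the length trend removed, Txn2 became 0.077 against control and 0.046 against unaffected fetuses. Scaling to all loci or to named loci moves every locus of a comparison alike, so differences relative to the median of all loci do not depend on it.

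The share of loci past the fold also depended on the loci counted. Among abundant loci with short transcripts, chosen after seeing the data, 24.3% were lower and 2.34% higher against control, 45.3% and 4.25% against unaffected fetuses, and 0.763% and 1.80% in unaffected against control fetuses. At a mean of at least 20 FPKM, also chosen later, 6.79% were higher against control, 13.2% against unaffected fetuses, and 2.22% lower and 2.60% higher in unaffected against control fetuses. At 10 FPKM these were 7.88% higher against control and 2.63% lower and 2.41% higher in unaffected against control fetuses, and over singly named loci 2.02% lower and 2.19% higher.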
